A study of Mus musculus with 8 samples.

Results

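The transcripts of 10 ubiquitin ligases linked to muscle atrophy were examined in gastrocnemius (GAS) muscle: *Trim63*, *Trim32*, *Fbxo32*, *Fbxo30*, *Fbxo21*, *Fbxo31*, *Asb2*, *Traf6*, *Nedd4* and *Stub1*. They were chosen by name from the gene symbols of a table of 22206 probe sets, and all 10 were found, each on 1 probe set. Male C57/Bl6j mice, 14 weeks old per the labels, carried an adeno-associated virus (AAV) in each leg. One virus expressed a short hairpin RNA against the transcript of *Mytho*, an autophagy regulator (AAV sh-RNA MYTHO), and the other a scrambled hairpin (AAV sh-RNA scrmb), both from a U6 promoter, which is active in many cell types. GAS was taken 3 weeks later and hybridised to Clariom S Mouse arrays, 4 for each virus. The study injected the MYTHO virus into the right leg and the scrmb virus into the opposite one, so side and virus cannot be told apart. Each animal is numbered in the column names and occurs once per virus, and the letters A to D stand for the animals.

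Ubiquitin ligases are the enzymes that choose which proteins receive a ubiquitin chain, most often as a mark for the proteasome. In skeletal muscle a small group of them is induced when muscle wastes, and the FoxO transcription factors, held inactive by insulin and AKT signalling, drive several of these genes. *Trim63* (MuRF1) and *Fbxo32* (atrogin-1) are the best known and are used widely as markers of atrophy. *Mytho* itself is described by the study as a FoxO-dependent gene, and the question here was whether its knockdown in unchallenged muscle altered the ligase transcripts. After injection of lipopolysaccharide, the study reports, knockdown lessened the rise of *Fbxo32* but not that of *Trim63*.

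None of the 10 ligases passed the adjusted threshold. Across all probe sets, 0.027% had a limma adjusted p under 0.05, and no ligase was among them. At an unadjusted p under 0.05, *Trim32*, a ligase of sarcomere-associated proteins, and *Fbxo31*, an F-box protein, had higher signal in MYTHO muscle, and 0 ligases had lower signal. This is 2 of 10 beside 12.4% of all probe sets, made up of 4.81% higher and 7.58% lower. In the fit blocked by animal the same 2 ligases had an unadjusted p under 0.05 and higher signal, beside 4.94% of all probe sets higher and 7.66% lower, and 0 passed adjustment, beside 0.00901%. None reached the threshold of the study, at least a 2-fold change with an unadjusted p under 0.05, which 1.51% of probe sets reached. At a 1.5-fold minimum in its place, *Trim32* and *Fbxo31* passed, beside 7.44% of all probe sets. The 10 log2 differences had a median of -0.07, beside -0.01 over all probe sets, and ran from -0.49 for *Trim63* to 0.81 for *Trim32*, with 5 positive and 5 negative. In 7 of 10 the size was under 0.2. The values come from log2 signals, in which a difference of 1 is a 2-fold change, and all differences are MYTHO minus scrmb. Whole muscle was measured, so a lower share of expressing cells and less RNA per cell cannot be told apart.

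The hairpin lowered its target. *Mytho*, listed as D230025D16Rik, lay between 10.78 and 11.35 on the scrmb arrays and between 8.08 and 8.80 on the MYTHO arrays. The log2 difference was -2.81 (95% interval -3.28 to -2.34, limma adjusted p 0.00044), and the difference between the legs was -3.19, -3.11, -1.98 and -2.97 in animals A to D. Array medians lay between 6.39 and 6.47. On the first principal component, with 28.2% of the variance, the scrmb array of animal D lay apart from the other scrmb arrays, and slow-fibre genes set apart the scrmb array of animal A and the MYTHO array of animal D. Values without these arrays are given below where they matter. GAS is a fast muscle, and of 11 fast-fibre markers 4 reached the ceiling of the scale, 19.93, while the others had list means of 18.70 to 18.91.

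**Figure D1:**
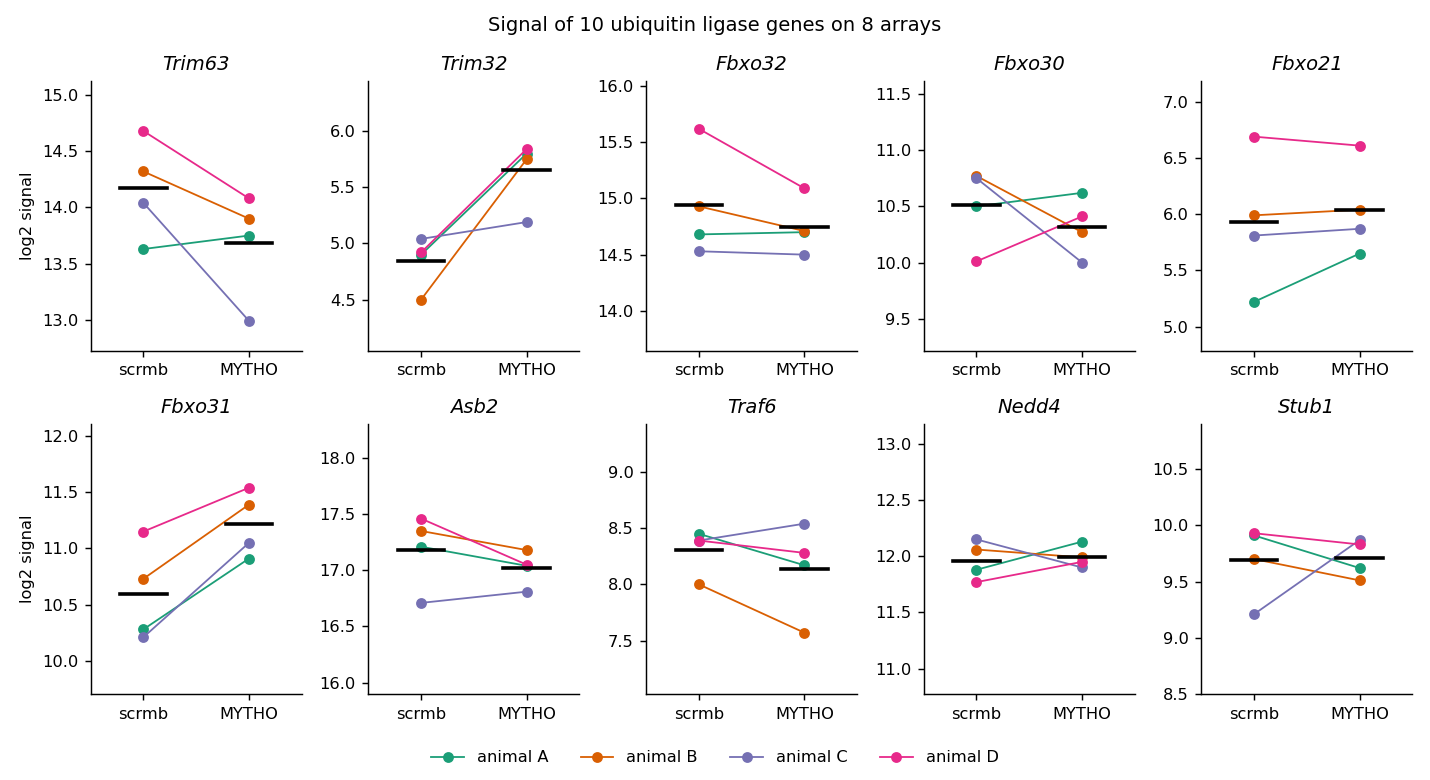
Log2 signal (vertical axis, each panel spanning a range of the same height) of the 10 ligase genes on the scrmb and MYTHO arrays, with points and lines coloured by animal and black bars at the group means (n = 4). *Trim32* is the 1 gene whose groups do not overlap, and the MYTHO array of animal C lies apart for both *Trim63* and *Trim32*.

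*Trim63* encodes MuRF1, a RING-finger ligase of the sarcomere that marks thick-filament proteins such as myosin. The gene lies on chromosome 4 from 134315120 to 134329629 (GRCm38.p6). In animals A to D the scrmb muscles gave log2 signals of 13.63, 14.32, 14.04 and 14.68, and the MYTHO muscles gave 13.75, 13.90, 12.99 and 14.08. The groups overlapped, with the lowest signal in the MYTHO muscle of animal C and the highest in the scrmb muscle of animal D. Scrmb muscle averaged 14.17 ± 0.44 (SD, n = 4) and MYTHO muscle 13.68 ± 0.48 (SD, n = 4). The log2 difference was -0.49 (SE 0.28), equal to 71.3% of the scrmb signal, and the 95% interval of -1.09 to 0.12 included no change as well as a 2-fold decrease. The limma adjusted p was 0.513.

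Animal C weighed heavily on that value. The *Trim63* difference between the legs was 0.12, -0.42, -1.05 and -0.60 in animals A to D, so it was lower in 3 of 4 animals. Without the MYTHO array of animal C the log2 difference was -0.26, without the scrmb array of animal D it was -0.32, and without the scrmb array of animal A it was -0.67 with an unadjusted limma p of 0.0354. Without both the scrmb array of animal A and the MYTHO array of animal D, which differ from their groups in slow-fibre genes, it was -0.80 with an unadjusted limma p of 0.0201 (adjusted p 0.345, limma), and over all alternatives its limma adjusted p ran from 0.345 to 0.736. With animal as a block the interval was -0.99 to 0.02 and the limma adjusted p was 0.411. The spread of *Trim63* within groups was larger than that of 84.2% of probe sets, at a pooled SD of 0.46.

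The region before the start of *Trim63* is shown because FoxO factors and the glucocorticoid receptor are known to act on this gene. RefSeq (GRCm38.p6) gives these 300 bases on the plus strand, chr4:134314870-134315169, with 250 before the transcription start and 50 after it. Capitals mark the hexamer TGTTCT, an arm of the glucocorticoid receptor element, followed directly by a FoxO core (TGTTTAC).

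Trim63: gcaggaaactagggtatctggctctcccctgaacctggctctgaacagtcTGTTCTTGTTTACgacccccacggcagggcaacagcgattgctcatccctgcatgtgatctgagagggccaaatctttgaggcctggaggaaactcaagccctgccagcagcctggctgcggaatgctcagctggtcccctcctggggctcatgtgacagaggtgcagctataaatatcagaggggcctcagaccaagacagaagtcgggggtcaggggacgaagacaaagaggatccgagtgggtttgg

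Counted in bases from the transcription start, the hexamer begins at -200 and the FoxO core at -194, without overlap. A TATA box (TATAAA) begins at -31. Searched on both strands, the FoxO core was held by 3.65% of 32851 RefSeq windows of this length and the hexamer by 19.0%, while the TATA box was held by 13.6%. The full palindrome, AGAACA and TGTTCT with 3 bases between them, was searched by exact letters only. It was not in this window, and 3 windows in all held it. Here TGAACA and 3 bases precede the hexamer, which differs from the palindrome in its first letter only. Such near matches were not counted in the other windows. Of the 9 ligases with a window in the set searched, *Trim63* alone had the FoxO core or the TATA box. The hexamer was also in 1 of the windows of *Nedd4*. *Fbxo32* had no window in the set, so its promoter was not searched. These matches are letters only, and no binding was measured.

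*Fbxo32* encodes atrogin-1, the F-box subunit of a cullin ligase that marks MyoD and the initiation factor eIF3f. The gene spans 58175879 to 58214892 of chromosome 15. In scrmb muscle the log2 signal was 14.68, 14.93, 14.53 and 15.62 in animals A to D, and in MYTHO muscle it was 14.70, 14.71, 14.50 and 15.09. The same animal, D, was highest with both viruses, and the legs of animals A and C differed by only 0.02 and -0.03. Scrmb muscle averaged 14.94 ± 0.48 (SD, n = 4) and MYTHO muscle 14.75 ± 0.25 (SD, n = 4), a log2 difference of -0.19 with an interval of -0.73 to 0.35 (adjusted p 0.807, limma). The sign turned without the scrmb array of animal D, at 0.04, while the difference was -0.33 without the scrmb array of animal C and -0.39 without both the scrmb array of animal A and the MYTHO array of animal D.

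Whether both markers shifted alike was asked through their ratio within each array. The log2 ratio of *Trim63* to *Fbxo32* was, by animal, -1.05, -0.61, -0.49 and -0.94 with the scrmb virus and -0.95, -0.81, -1.51 and -1.01 with the MYTHO virus. The means, -0.77 ± 0.27 (SD, n = 4) and -1.07 ± 0.31 (SD, n = 4), differed by -0.30, and an exact two-sided permutation test over 70 relabellings gave p = 0.229. A different change of the 2 genes was therefore not shown, and the MYTHO array of animal C held the lowest ratio, without which the difference was -0.15.

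*Trim32* encodes a RING-finger ligase of the tripartite motif family whose mutation causes a limb-girdle muscular dystrophy, and which marks desmin and thin-filament proteins. It lies on chromosome 4 from 65604986 to 65616240. The log2 signals were 4.90, 4.50, 5.04 and 4.92 in scrmb muscle and 5.80, 5.75, 5.19 and 5.84 in MYTHO muscle of animals A to D. Every MYTHO array was above every scrmb array, although the lowest MYTHO value, 5.19 in animal C, was near the highest scrmb value, 5.04. Scrmb muscle averaged 4.84 ± 0.23 (SD, n = 4) and MYTHO muscle 5.65 ± 0.31 (SD, n = 4). The log2 difference was 0.81 (SE 0.21), with a 95% interval of 0.36 to 1.25, on a dim probe set. The limma p was 0.00206 before and 0.153 after adjustment, and an exact permutation test gave p = 0.0286, the smallest value possible over relabellings that ignore the animals. Within 4 animals no exact sign-flip test can go below 0.125. Over the alternatives the limma adjusted p ran from 0.122 to 0.361. Groups that do not overlap were found in 6.46% of all probe sets, 2.59% with higher MYTHO signal.

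*Trim32* was higher in the MYTHO leg of 4 of 4 animals, by 0.90, 1.25, 0.15 and 0.92, the smallest difference being in animal C. That animal also had the smallest *Mytho* difference, but the largest of *Fbxo31*, the other ligase higher in 4 of 4 animals, at 0.84. A link to the size of the knockdown was not tested. Without both the scrmb array of animal A and the MYTHO array of animal D the log2 difference was 0.76 (adjusted p 0.317, limma). The signal was low. Its mean of 5.24 over the 8 arrays exceeded that of 27.5% of all probe sets and of 47.1% of 1079 olfactory receptor probe sets, a family that muscle is not known to express widely. All 8 arrays lay under 6.70, the 95th percentile of that family, so the *Trim32* signal was not above theirs. The promoter window of *Trim32* held none of the motifs searched.

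**Figure D2:**
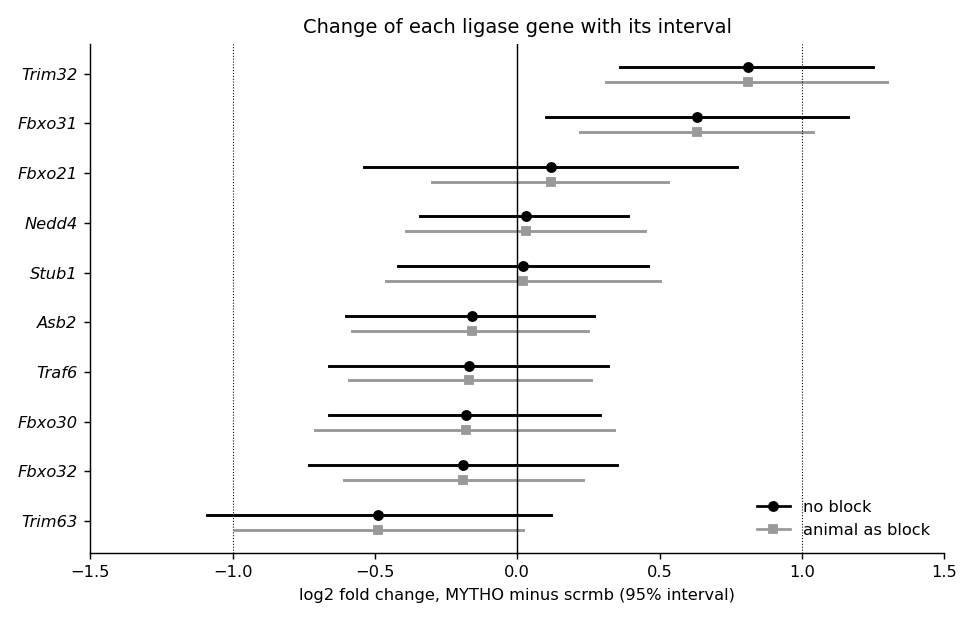
Log2 difference, MYTHO minus scrmb (horizontal axis), of each ligase gene with its 95% interval from limma on 8 arrays, without a block (black circles) and with animal as a block (grey squares). Dotted lines mark a 2-fold change. The intervals of *Trim32* and *Fbxo31* lie above 0 in both fits, and that of *Trim63* includes 0 in both.

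*Fbxo31* encodes an F-box protein known for marking cyclin D1, and lies on chromosome 8 from 121549443 to 121578864. Scrmb muscle gave log2 signals of 10.28, 10.73, 10.21 and 11.15, and MYTHO muscle 10.91, 11.39, 11.05 and 11.54. The groups overlapped only because the scrmb muscle of animal D was above the MYTHO muscles of animals A and C. Scrmb muscle averaged 10.59 ± 0.44 (SD, n = 4) and MYTHO muscle 11.22 ± 0.29 (SD, n = 4), a log2 difference of 0.63 with an interval of 0.10 to 1.16. The limma adjusted p was 0.319. In 4 of 4 animals the MYTHO leg was higher, by 0.63, 0.66, 0.84 and 0.39. Differences of 1 direction in all 4 animals were found in 2 of 10 ligases and in 19.7% of all probe sets, 8.94% being higher. Without the scrmb array of animal D the log2 difference was 0.82, and without both the scrmb array of animal A and the MYTHO array of animal D it was 0.42 with an unadjusted limma p of 0.157. Leaving out scrmb A, scrmb C, MYTHO B or MYTHO D alone gave 0.50 to 0.57, with unadjusted limma p of 0.0561 to 0.0721.

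The other F-box genes differed by less than the spread between arrays. *Fbxo30* encodes MUSA1, a ligase subunit induced by denervation and held down by BMP signalling. The study reports lower *Musa1* mRNA after *Mytho* knockdown in the basal state. On these arrays the *Fbxo30* log2 signals were 10.50, 10.77, 10.75 and 10.01 in scrmb and 10.62, 10.27, 10.00 and 10.41 in MYTHO muscle. The legs differed in opposite directions, by -0.50 and -0.75 in animals B and C and by 0.12 and 0.40 in animals A and D. The log2 difference was -0.18 with an interval of -0.66 to 0.29 (adjusted p 0.789, limma), and without single arrays the difference ran from -0.35 without scrmb D to -0.07 without MYTHO C.

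*Fbxo21* encodes the ligase subunit called SMART, a FoxO-dependent gene of atrophy. It ranged from 5.22 to 6.69 in scrmb and from 5.65 to 6.61 in MYTHO muscle, and animal D was highest with both viruses. The log2 difference was 0.12, with an interval of -0.54 to 0.77 (adjusted p 0.916, limma). It was among the dim probe sets, brighter than 78.8% of the olfactory receptor probe sets. Without both the scrmb array of animal A and the MYTHO array of animal D its sign turned, to -0.31.

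The ligases of other classes differed by less than 0.2 on the log2 scale. *Asb2* encodes the substrate subunit of a cullin 5 ligase that marks filamins, and it had log2 signals of 16.71 to 17.46 in scrmb and 16.81 to 17.18 in MYTHO muscle. Its log2 difference was -0.16, with an interval of -0.60 to 0.27, and ran from -0.32 without scrmb C to -0.07 without scrmb D. *Traf6*, a RING-finger ligase that builds signalling chains upstream of NF-kB, ranged from 8.0 to 8.45 and from 7.57 to 8.54, with animal B lowest under both viruses. The log2 difference was -0.17, with an interval of -0.66 to 0.32, and ran from -0.30 without MYTHO C to 0.02 without MYTHO B. *Nedd4*, a HECT ligase of membrane proteins, was the steadiest, at 11.77 to 12.15 in scrmb and 11.90 to 12.13 in MYTHO muscle. Its difference was 0.03 with an interval of -0.34 to 0.39, and 3.63% of probe sets had a smaller spread within groups. *Stub1* encodes CHIP, a U-box ligase that works with heat-shock chaperones, and its probe set also names the microRNA gene Mir3082. It ranged from 9.21 to 9.93 in scrmb and from 9.51 to 9.87 in MYTHO muscle. Its log2 difference was 0.02 with an interval of -0.42 to 0.46, and the legs of animal C differed by 0.66 while those of the other animals differed by -0.29 to -0.10. Limma adjusted p lay between 0.797 and 0.984 for these 4 genes. A 2-fold change lay outside the interval of 7 of the 10 ligases, the exceptions being *Trim63*, *Trim32* and *Fbxo31*, beside 84.2% of all probe sets.

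**Figure D3:**
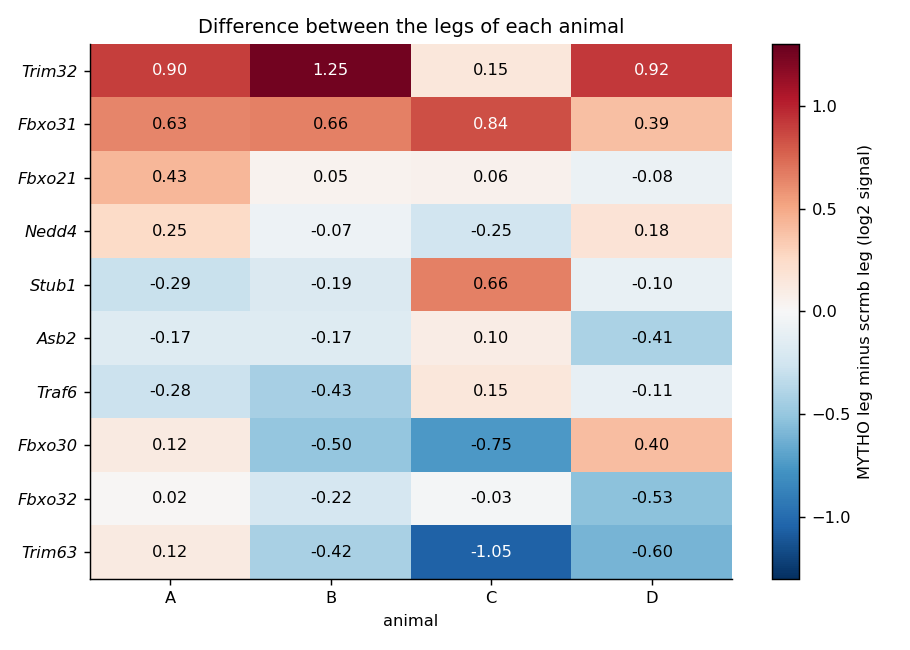
Difference in log2 signal between the MYTHO and the scrmb leg of each animal (columns A to D) for each ligase gene (rows, ordered by mean difference), red where the MYTHO leg was higher and blue where it was lower. *Trim32* and *Fbxo31* are red in 4 of 4 animals, *Trim63* is -1.05 in animal C and 0.12 in animal A, and no gene is blue in every animal.

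The profiles over the 8 arrays were compared by the root mean square difference of log2 signals, each centred on its own mean. *Fbxo32* differed from *Trim63* by 0.29, beside a median of 0.53 for the 10533 bright probe sets compared with *Trim63*, and was its nearest ligase. The probe sets nearest to *Trim63* were those of *Dyrk2*, *Epb41l4b* and *Olfr328*, at 0.13, 0.14 and 0.17. They shared its low value in the MYTHO muscle of animal C. The ligase nearest to *Fbxo32* was *Asb2*, at 0.23, and the nearest probe sets were those of *Synm*, *Gaa* and *Wdr12*, each at 0.13, beside a median of 0.43. *Trim32* was the farthest ligase from both, at 0.74 and 0.62.

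Close relatives of the ligases formed the first list set beside them. Of 16 relatives, 0 passed after adjustment, 3 had lower signal at an unadjusted p under 0.05 and 0 had higher signal. Over all probe sets 7.58% were lower and 4.81% higher at that unadjusted threshold. The relatives had a median log2 difference of 0.03. *Trim72*, a membrane-repair protein of the same family as *Trim63*, lay at 10.57 to 10.99 in scrmb and 10.05 to 10.28 in MYTHO muscle, with no overlap, a log2 difference of -0.60 (adjusted p 0.199, limma). *Asb5*, a muscle-enriched relative of *Asb2*, lay at 15.75 to 16.27 and 15.18 to 15.54, also with no overlap, a log2 difference of -0.52 (adjusted p 0.276, limma). The third was *Fbxo40*, a muscle F-box gene that targets IRS1, named after its values were seen, at -0.47 (adjusted p 0.360, limma), and with animal as a block its unadjusted p was 0.0544, leaving 2 relatives. Non-overlapping groups with lower signal were found in 3.87% of all probe sets. The closest relatives of MuRF1, *Trim54* and *Trim55*, also named after their values were seen, had log2 differences of -0.40 and 0.12.

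Other ligases studied in muscle wasting, 16 in all, had a median log2 difference of 0.14. At an unadjusted p under 0.05, 1 gene had higher signal and 0 lower, beside 4.81% and 7.58% of all probe sets. That gene, *Znrf1*, was named after its values were seen and had a log2 difference of 0.56 (adjusted p 0.380, limma). With animal as a block its unadjusted limma p was 0.0607, leaving 0 of 16. Scaffolds and conjugating enzymes that serve the ligases, measured on 23 probe sets, had a median of -0.08. *Rnf7*, the RING subunit of cullin 5 ligases such as that of *Asb2*, was the 1 gene with an unadjusted p under 0.05. It lay at 12.23 to 12.50 in scrmb and 11.74 to 12.12 in MYTHO muscle, with no overlap, a log2 difference of -0.47 (adjusted p 0.293, limma). *Nedd8*, the modifier that activates cullins, did not overlap either, at 9.75 to 9.93 and 10.11 to 10.30, with a log2 difference of 0.33 (adjusted p 0.435, limma). *Skp1* and *Cul1*, the partners of F-box proteins, named after their values were seen, had log2 differences of 0.04 and -0.30.

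Regulators of the ligase genes came next. Of 25, 3 had higher signal at an unadjusted p under 0.05 and 0 lower, beside 4.81% and 7.58% of all probe sets. The regulators had a median of 0.12 and no adjusted call. *Hdac5*, a class IIa deacetylase linked to the denervation response whose probe set also names Mir8101, lay at 5.81 to 6.27 in scrmb and 6.49 to 7.01 in MYTHO muscle, with no overlap, a log2 difference of 0.57 (adjusted p 0.252, limma). The others were *Myog*, which activates *Trim63* and *Fbxo32* after denervation, and *Gdf5*, a BMP ligand, at 0.65 and 0.54 (adjusted p 0.307 and 0.347, limma). The FoxO transcripts themselves, *Foxo1*, *Foxo3*, *Foxo4* and *Foxo6*, had log2 differences of 0.36, -0.20, 0.20 and 0.41, and *Nr3c1*, the glucocorticoid receptor, had -0.28. These last 7 genes were named after their values were seen. Of the 25 regulators, 10 had a mean under 6.70, the olfactory receptor limit given for *Trim32*, among them *Hdac5*, *Myog*, *Gdf5*, *Foxo3*, *Foxo4* and *Foxo6*, so their differences rest on dim signals.

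FoxO-linked atrophy genes that are not ligases, 20 in all, had a median of 0.17. At an unadjusted p under 0.05, 3 had higher signal and 0 lower, beside 4.81% and 7.58% of all probe sets. *Map1lc3a*, an autophagosome protein, lay at 9.74 to 11.17 in scrmb and 11.18 to 12.10 in MYTHO muscle, so its groups just failed to overlap. Its log2 difference was 1.14 (adjusted p 0.164, limma). *Becn1*, an autophagy initiation gene, lay at 6.87 to 7.58 and 7.60 to 7.78, with a log2 difference of 0.47 (adjusted p 0.354, limma). The third, *Ddit4*, an inhibitor of mTORC1 named after its values were seen, had 0.49 at a mean of 4.64, under the olfactory receptor median of 5.31, and its unadjusted limma p was 0.0564 with animal as a block. That fit also had 3 genes with an unadjusted p under 0.05, since *Cdkn1a*, a cell-cycle inhibitor named after its values were seen, at a log2 difference of 0.62, went from 0.0868 to 0.0100.

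The 25 substrates and partners of the ligases had a median of 0.12 over the genes below the ceiling, and none passed adjustment. Beside 4.81% of all probe sets higher and 7.58% lower at an unadjusted p under 0.05, 0 had lower and 4 had higher signal. They were *Bag3*, a co-chaperone that acts with CHIP, *Jup*, a plakoglobin bound by TRIM32, *Actn2*, a Z-disc protein, and *Eif3f*, a target of atrogin-1, all named after their values were seen. Their log2 differences were 1.15, 0.91, 0.68 and 0.52, with limma adjusted p from 0.225 to 0.394. The groups of each overlapped.

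**Figure D4:**
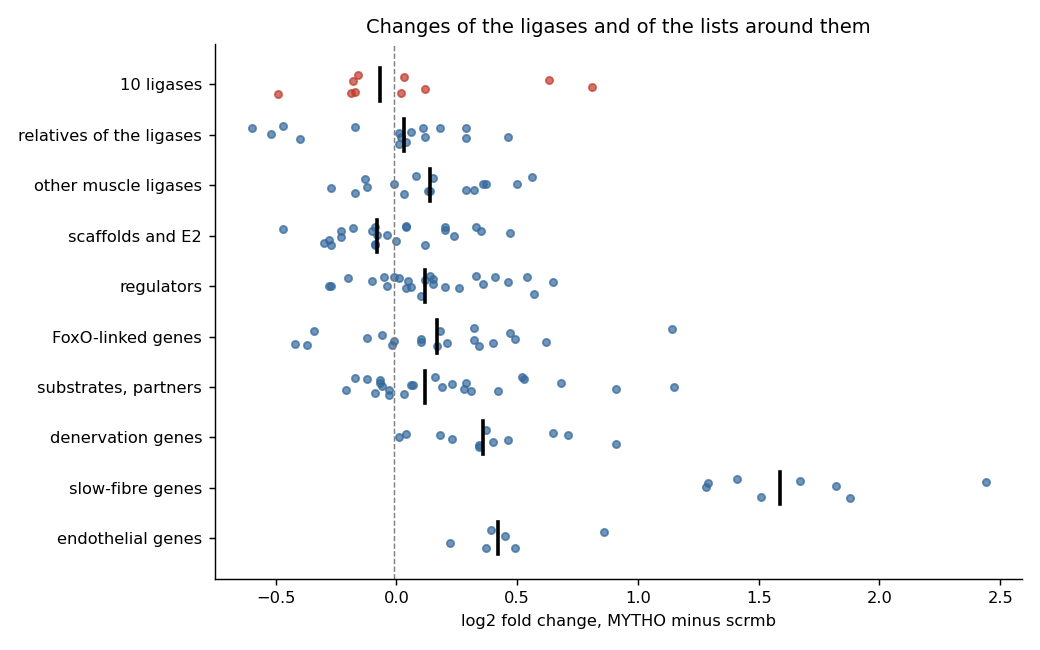
Log2 difference, MYTHO minus scrmb (horizontal axis), of single genes (points) in the 10 ligases and in the lists set beside them, with a black bar at each median and a dashed line at the median of all probe sets, -0.01; points are spread vertically at random and saturated genes are left out. The ligases centre near 0, whereas all slow-fibre, endothelial and denervation genes lie to the right of 0.

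Markers of fibre type, innervation and other cells were read beside these values. Of all 22206 probe sets, 10937 below the ceiling had positive log2 differences, and 4.81% were higher at an unadjusted limma p under 0.05. All 8 slow-fibre markers had positive log2 differences with a median of 1.59, 7 of them at an unadjusted p under 0.05 and 0 after adjustment, and the list mean lay at 11.61 to 13.70 in scrmb and 11.68 to 14.88 in MYTHO muscle. The fast-fibre markers below the ceiling had a median of -0.01, and *Myh1*, a fast myosin named after its values were seen, was the 1 with an unadjusted limma p under 0.05, at a log2 difference of 0.70. Denervation genes were positive in 12 of 12 with a median of 0.36, 2 of them at an unadjusted p under 0.05 and 6 of 12 with a mean under the olfactory receptor limit of 6.70, at list means of 6.96 to 7.15 and 7.21 to 7.70. *Chrna1*, the muscle acetylcholine receptor subunit, lay at 6.20 to 6.59 and 6.80 to 7.57, with a log2 difference of 0.91 (adjusted p 0.127, limma). Its mean was 6.87, and all its scrmb values were under the limit of 6.70, so it was dim too. Endothelial markers were positive in 6 of 6 with a median of 0.42, 2 of them at an unadjusted p under 0.05, and their list means, 9.77 to 10.29 and 10.44 to 10.59, did not overlap. *Tek* and *Pecam1*, receptors of endothelial cells, had log2 differences of 0.86 and 0.45. The slow-fibre, denervation and endothelial lists had medians of the same sign as *Trim32* and *Fbxo31*, and the fast-fibre list did not. Positive medians were also found for other muscle ligases, regulators, FoxO-linked genes and substrates, at 0.14, 0.12, 0.17 and 0.12. The part of any list in the *Trim32* and *Fbxo31* values was not tested.

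The other marker lists overlapped between the groups. List means were 6.79 to 7.12 in scrmb and 6.80 to 7.14 in MYTHO muscle for 8 macrophage markers, and 6.03 to 6.38 and 5.88 to 6.26 for the 5 of 6 T-cell markers found. Fibroblast markers, 6 in all, had means of 10.77 to 10.90 and 10.38 to 11.20, and *Dcn*, a matrix proteoglycan, had no overlap and a log2 difference of -0.59 (adjusted p 0.236, limma). Adipocyte markers spread widely, from 6.72 to 10.20 and from 7.08 to 11.63. Schwann cell markers lay at 6.84 to 8.61 and 6.92 to 7.60, and blood markers at 10.22 to 11.74 and 10.97 to 12.52. Satellite cell and regeneration markers, without *Myh8* at the ceiling, lay at 5.21 to 5.65 and 5.34 to 6.25. Means were under the olfactory receptor limit of 6.70 for 5 of 8 macrophage and 4 of 5 T-cell markers. The same held for 6 of 7 satellite cell and regeneration markers, 3 of 6 Schwann cell and 2 of 6 adipocyte markers. It held for 1 of 6 fibroblast and 1 of 4 blood markers. Dim signals limit what the overlap of these lists can show. Among the ligases themselves, single arrays were often the extreme of their group, and the same count over all probe sets was not made. The MYTHO array of animal C was lowest of its group for 6 of the 10, including *Trim63* and *Trim32*, and the scrmb array of animal D was highest of its group for 6, including *Trim63*, *Fbxo32* and *Fbxo31*.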

How the data were processed

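Total RNA of 8 GAS muscles was hybridised to Clariom S Mouse arrays. The authors deposited log2 signals computed with the Transcriptome Analysis Console 4.0.1 and, per the file headers, SST-RMA at gene level with annotation release 36 on mm10, which corrects background, normalizes quantiles across arrays and summarises probes. Such signals can understate changes of dim genes. The deposited table also holds the authors' group averages, fold changes and p-values, which were not used. Columns were assigned to groups by name, and no label ties a column to a replicate number. Groups were compared with limma 3.58.1 in R 4.3.3 (lmFit and eBayes, MYTHO minus scrmb, two-sided, all 8 arrays, no block, which the study does not mention), adjusted by Benjamini-Hochberg over 22206 probe sets. The fits were tested on simulated data. The number of arrays limits precision, and p-values measure the spread among these samples. Precision is given as SD or a 95% interval.

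The opposite legs of 1 animal share a number in the column names, so the numbers pair the arrays. Deviations from the group means correlated at 0.00271, -0.00135, 0.135 and 0.087 across probe sets for animals A to D, and the fit with animal as a fixed block changed no adjusted call of a ligase. Genes were matched by file symbol and then by RefSeq synonym (GRCm38.p6), which found 205 of 206 list entries. Where several probe sets named 1 gene, the brightest stood for it. Named genes were the 10 ligases, the target, genes of each list past adjustment or, at most 2 each way, largest in change without overlap, and the 3 probe sets nearest to *Trim63* and *Fbxo32*. Alternatives covered normalization, filters, variance model, array weights, blocks, call thresholds and leaving out arrays. The ligases and lists were chosen with earlier results of these data known. The comparison of dim signals with olfactory receptor probe sets, and the fit without both the scrmb array of animal A and the MYTHO array of animal D, were added once the values were known.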

Additional observations from a re-analysis of the deposited data

Results flagged for a closer look

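In 24 groups of 4 arrays, covering the 10 ligases, the targeted gene and the *Trim63* to *Fbxo32* ratio, 3 held 1 array whose gap to its nearest neighbour, as a share of the group's range, exceeded Dixon's 95% critical value. Chance gives about 1 in 20. *Trim32* in MYTHO muscle was 5.19 in animal C against 5.75 to 5.84 in the others, a gap share of 0.862. *Mytho*, listed as D230025D16Rik, was also apart in the MYTHO muscle of animal C, at 8.80 against 8.08 to 8.20 (0.833). *Traf6* in scrmb muscle was 8.0 in animal B against 8.39 to 8.45 (0.867), and the MYTHO muscle of animal B was lowest too, at 7.57. *Trim63* was lowest in the MYTHO muscle of animal C at 12.99, and its gap there did not exceed that value.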

How the results depend on the processing

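Of 188 values of the 10 ligases under alternatives, 177 kept their direction and stayed without an adjusted call, and 11 turned sign. The number of ligases with a limma adjusted p under 0.05 was 0 under all 20 alternatives, a threshold of 0.1 among them. At an unadjusted p under 0.05, the 2 with higher signal became 1 among the upper 50% of probe sets, which leaves out *Trim32*, and 1 to 2 without single arrays (1 without scrmb A, scrmb C, MYTHO B or MYTHO D, where *Fbxo31* was lost). The 0 with lower signal became 0 to 1 without single arrays, the 1 being *Trim63* without scrmb A (unadjusted limma p 0.0354). Without both scrmb A and MYTHO D, a setting added after seeing the data, 1 was higher and 1 lower. A fold minimum of 1.5 in place of 2 called 2 ligases in place of 0, beside 7.44% of all probe sets. The replicate block by animal kept 0 adjusted calls and 2 higher at an unadjusted p. For the *Trim63* to *Fbxo32* ratio, an exact sign-flip test within animals gave p = 0.375, where 0.125 is the smallest possible.

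Signs turned where no value was called: *Fbxo32* ran from -0.327 to 0.0367 without single arrays, *Fbxo21* from -0.121 to 0.369, *Traf6* from -0.301 to 0.0225, *Nedd4* from -0.0375 to 0.0892 and *Stub1* from -0.139 to 0.101. *Fbxo21* was -0.310 without scrmb A and MYTHO D. The median over the ligases ran from -0.123 to 0.0254 without single arrays, and was -0.165 both among the upper 50% of probe sets and without scrmb A and MYTHO D. *Asb2* was -0.272 after quantile normalization. The cause was not tested. No ligase had a second probe set, so replacing its probe set by another was not possible, while keeping 1 probe set per gene symbol changed no call. Dim signals limit *Trim32* and *Fbxo21*, and several list genes.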
